A study of Mus musculus with 8 samples.

Results

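The genes examined were 33 genes of peroxisome assembly and peroxisomal beta-oxidation, among the 45706 genes of the deposited table for fasted mouse liver. They were taken by gene name and comprise 13 peroxins, the proteins that build the organelle, and 20 lipid enzymes, carriers and catalase. All 33 passed the filter on low counts that left 14629 genes tested. The livers came from 4 WT and 4 SA/SA female C57BL/6J mice, 4 months of age, all fasted overnight, with 1 library for each mouse. SA/SA mice carry the change S155A, an alanine in place of a serine, in perilipin 5 (PLIN5) on both alleles. The change was introduced by CRISPR-Cas9 at the endogenous gene, so it is present in every tissue and PLIN5 is made from its own promoter. Both genotypes were fasted, and fed mice were not analysed here. The comparison asks whether a PLIN5 that cannot be phosphorylated at this serine alters the fasting expression of genes for lipid oxidation.

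Peroxisomes are small organelles that shorten fatty acids too long or too branched for mitochondria. Peroxins place proteins in the peroxisomal membrane, bring folded enzymes into the matrix and multiply the organelle. In the liver, fasting fatty acids activate the nuclear receptor PPARa, and several peroxisomal genes are classic PPARa targets in rodents, among them Ehhadh, Acaa1b and Pex11a. PLIN5 sits on lipid droplets, and its phosphorylated form has been linked to lipolysis and to PPARa target genes.

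The labels name liver for the tissue but hepatocytes for the cell type. Levels are given as CPM, the estimated count of a gene scaled to the TMM-normalized size of its library. The 9 hepatocyte markers of the list that are in the table were detected in every mouse, and they summed to between 101777 and 119936 CPM in WT and between 99513 and 140748 CPM in SA/SA mice, the highest sums being those of SA/SA replicates 3 and 2. Markers of Kupffer, endothelial, stellate and bile duct cells were detected in every mouse as well, so the values are read as whole liver. In such a sample, fewer cells of a type and less RNA per cell cannot be told apart. Library totals ran from 39709785 to 54540864 counts. SA/SA replicate 3 had the smallest total and stood apart in 13 lymphocyte and plasma cell markers, which summed to 2069 CPM there and to between 20.6 and 49.98 CPM in the other mice. Plin5 itself was present at 254, 194, 183 and 194 CPM in WT replicates 1 to 4 and at 457, 276, 192 and 386 CPM in SA/SA replicates 1 to 4. Its log2 fold change was 0.67 with a standard error of 0.24, at an unadjusted p of 0.019 and an adjusted p of 0.993 in edgeR. A count for the whole gene does not show the edited codon.

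Most matrix enzymes are sorted by a short signal at their carboxyl end, classically serine, lysine and leucine, which the receptor encoded by Pex5 binds. The final 30 coding bases of 6 enzymes on which the results turn are shown with their last 3 codons in capitals, because these are the codons of that signal where the gene has it.
Ehhadh: agcttggcaggaccccatagcAGCAAACTG
Acot8: ttgaagcctcaggtgtcagagAGTAAGCTA
Ech1: gacacaaaaagcatcaccttcTCCAAGCTC
Crat: ctactccagaaccaccccaggGCCAAGCTC
Acox2: ccactgatgcaaagctggaaaCCCAAGCTG
Phyh: cgacttgtgaaaggagaaagaATAAACATT
They lie in GRCm38 at chr16:21762087-21762116 on the reverse strand for Ehhadh, chr2:164792895-164792924 (reverse) for Acot8, chr7:28832076-28832105 (forward) for Ech1, chr2:30402581-30402610 (reverse) for Crat, chr14:8225769-8225798 (reverse) for Acox2 and chr2:4938328-4938357 (forward) for Phyh. The first 3 of these genes end in serine, lysine and leucine codons and are the only 3 of the 33 that do. Crat and Acox2 are among 7 genes whose last codons spell a close variant of the signal, the others being Hsd17b4, Scp2, Decr2, Eci2 and Crot. Phyh ends in neither. Phyh and the thiolases Acaa1a and Acaa1b are known to use a signal at the other end of the protein, which the receptor encoded by Pex7 binds.

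Peroxisomal gene expression did not differ detectably between SA/SA and WT liver. None of the 33 genes passed an adjusted p of 0.05 in edgeR, DESeq2 or limma-voom, and none reached an unadjusted p of 0.05 in edgeR, beside 0% of all genes tested at the adjusted threshold and 3.4% at the unadjusted one. The smallest p of the 33 was 0.176 and the smallest adjusted p 0.993 (edgeR), where the smallest adjusted p of any gene was 0.758. The WT and SA/SA values overlapped for all 33 genes, while the groups did not overlap for 2.3% of all genes. Of the 33, 16 were higher and 17 lower in SA/SA mice, with a median log2 fold change of -0.036 beside -0.0050 over all genes, and for 25 genes the log2 fold change was smaller than its own standard error. The 95% interval of the fold change lay within 0.32 log2 units of 0 for 8 genes, within 1.5-fold in either direction for 26 and within 2-fold for all 33, beside 13.7%, 49.8% and 75.2% of all genes tested.

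**Figure D1:**
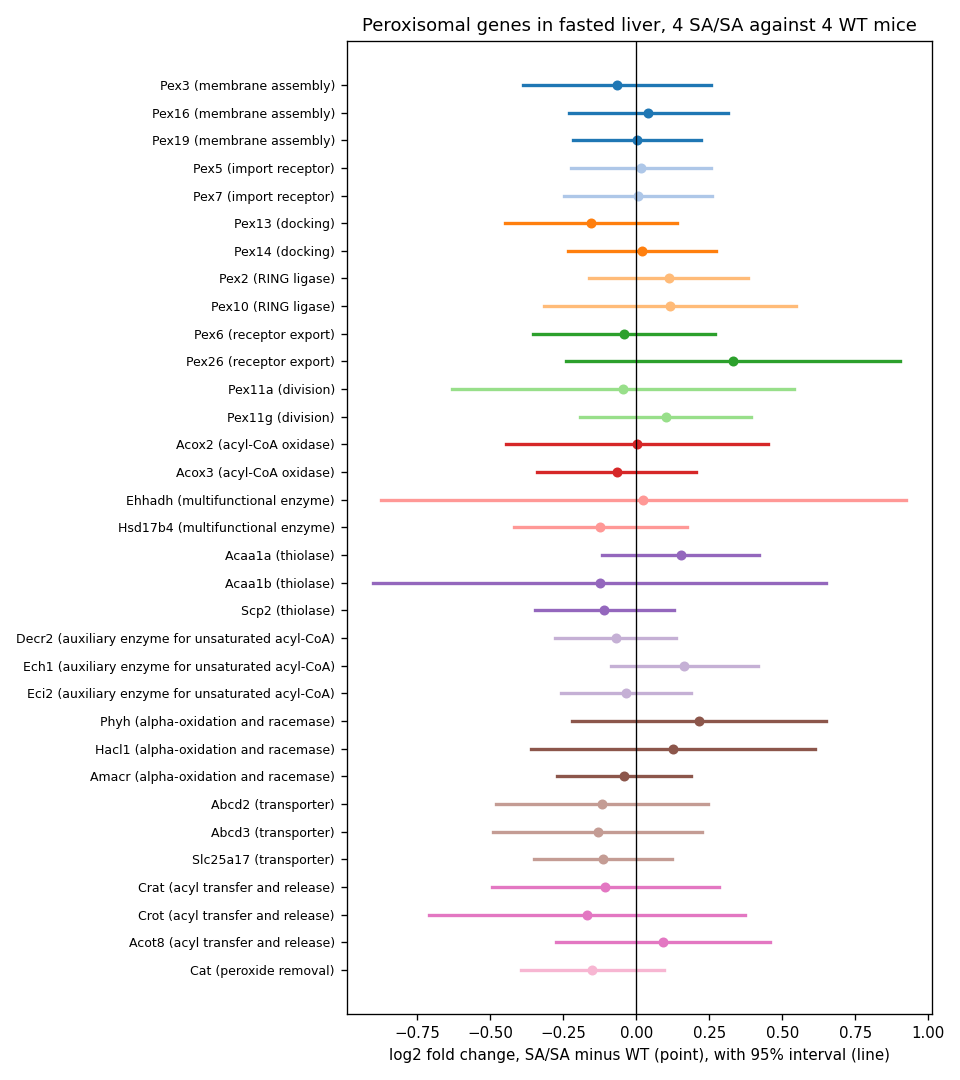
Log2 fold change of SA/SA against WT liver for the 33 genes, grouped by role in colour, with the point as the edgeR estimate and the line as its 95% interval (4 mice per genotype). All 33 intervals cross 0, and the widest are those of Ehhadh, Acaa1b, Pex11a and Pex26.

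Among the genes that build the organelle, the 13 peroxins were higher in 9 cases and lower in 4, at a median log2 fold change of 0.016. Pex3, Pex16 and Pex19, which insert membrane proteins, differed by -0.066, 0.041 and 0.0025 on the log2 scale. The matrix import receptors Pex5 and Pex7 differed by 0.016 and 0.0069, and the docking factors Pex13 and Pex14 by -0.16 and 0.019. Pex13 was measured at 50.01, 40.4, 40.3 and 43.8 CPM in WT replicates 1 to 4 and at 40.2, 32.0, 37.3 and 47.2 CPM in SA/SA replicates 1 to 4. SA/SA replicate 4 was above 3 of the 4 WT mice even for this gene, which had the lowest fold change of the peroxins. Pex2 and Pex10, RING ligases that recycle the import receptor, differed by 0.11 and 0.12.

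Pex6 and Pex26 pull the used receptor out of the membrane, and Pex26 had the largest fold change of the 33 genes, 0.33 on the log2 scale with a standard error of 0.26. Its level was 61.7, 55.5, 41.3 and 32.4 CPM in WT replicates 1 to 4 and 52.4, 63.7, 85.4 and 38.8 CPM in SA/SA replicates 1 to 4. SA/SA replicates 2 and 3 were the highest and WT replicate 4 the lowest, and without SA/SA replicate 3 the fold change was 0.12. The exact two-sided permutation test on log2 CPM gave p = 0.400, with 0.0286 the smallest value that 4 mice against 4 allow. Pex6 differed by -0.042, and the division factors Pex11a and Pex11g by -0.047 and 0.10.

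The 20 enzymes, carriers and catalase were higher in 7 cases and lower in 13, at a median log2 fold change of -0.069. Ech1, which shifts double bonds so that unsaturated acyl-CoA can be degraded, had the smallest p of the 33. It was measured at 772, 958, 839 and 804 CPM in WT replicates 1 to 4 and at 888, 1011, 847 and 1037 CPM in SA/SA replicates 1 to 4, a log2 difference of 0.17 with a standard error of 0.11. All 4 SA/SA mice were above 3 of the 4 WT mice, and WT replicate 2 was above 2 SA/SA mice (exact permutation p = 0.143). Its partners Decr2 and Eci2 differed by -0.070 and -0.036. Catalase (Cat), which removes the hydrogen peroxide made by the oxidases, was at 1547, 1543, 1828 and 1659 CPM in WT and at 1467, 1561, 1302 and 1598 CPM in SA/SA replicates 1 to 4. The difference was -0.15 with a standard error of 0.11, the groups overlapped, and the exact permutation p was 0.171.

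The acyl-CoA oxidases Acox2 and Acox3, which start the cycle on branched chains, differed by 0.0019 and -0.067. The multifunctional enzymes of the middle steps, Ehhadh and Hsd17b4, differed by 0.024 and -0.12. The thiolases that cleave the shortened chain differed by 0.15 for Acaa1a, -0.12 for Acaa1b and -0.11 for Scp2. Phyh and Hacl1 of alpha-oxidation and the racemase Amacr differed by 0.22, 0.13 and -0.041. Of the membrane carriers, the very long chain transporter Abcd2 differed by -0.12, the branched chain and bile acid precursor transporter Abcd3 by -0.13 and the cofactor carrier Slc25a17 by -0.11. The carnitine acyltransferases Crat and Crot, which prepare shortened chains for export, differed by -0.11 and -0.17, and the thioesterase Acot8 by 0.091.

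A second pattern was a genotype difference whose direction was not the same in all mice. The animal numbers in the labels fall below 200 for replicates 1 and 4 of either genotype (the low series) and above 800 for replicates 2 and 3 (the high series), so each series holds 2 WT and 2 SA/SA mice, and the labels do not say what the numbers stand for. For 9 of the 33 genes, 27.3% beside 4.72% of all genes tested, both SA/SA mice were above both WT mice in the low series and below both in the high series. These were Ehhadh, Acaa1b, Pex11a, Crat, Abcd3, Acot8, Pex10, Pex16 and Pex14. The opposite crossing was found for 0 of the 33 and for 4.76% of all genes. This way of counting was chosen after the values were seen. Over the 33 genes, the median genotype difference on the log2 CPM scale was 0.023 in the low series (19 genes higher in SA/SA) and -0.13 in the high series (9 genes higher). When 1 mouse was left out, the smallest count was 8 (SA/SA replicate 3 absent) and the largest 11 (WT replicate 1 absent). Such a fit has a single mouse in 1 cell, where the rule is easier to meet. These counts therefore do not test how firm the count of 9 is.

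Ehhadh, which hydrates and dehydrogenates the acyl chain, showed the widest range, 4.39-fold between the highest and the lowest mouse. In the low series it was at 1753 and 2622 CPM in WT and at 3947 and 3092 CPM in SA/SA mice. In the high series it was at 2101 and 2603 CPM in WT and at 1291 and 898 CPM in SA/SA mice. The genotype difference on the log2 CPM scale was thus 0.70 among low series mice and -1.12 among high series mice. Over all 4 mice of a genotype, the mean ± SD was 2269.8 ± 421 CPM for WT and 2307 ± 1452 CPM for SA/SA, near-equal means with unequal spreads.

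Pex11a, which elongates the peroxisomal membrane before division, followed the same order. In the low series it was at 284 and 239 CPM in WT and at 439 and 355 CPM in SA/SA mice, while in the high series it was at 381 and 332 CPM in WT and at 212 and 190.0 CPM in SA/SA mice. The genotype difference was 0.60 and then -0.82 on the log2 CPM scale.

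Acaa1b, described with its copy Acaa1a below, had a larger interaction than either, and the remaining 6 had smaller ones than Pex11a. Crat was at 248 and 269.6 CPM in WT and 309.9 and 315 CPM in SA/SA mice of the low series, and at 298 and 301 CPM in WT and 232 and 180.3 CPM in SA/SA mice of the high series. Abcd3 was at 682 and 668 against 756 and 799 CPM in the low series and at 751 and 752 against 571 and 479 CPM in the high series, WT first. Acot8, which frees fatty acids from CoA, was at 36.8 and 38.8 against 51.7 and 51.1 CPM and then at 41.0 and 47.2 against 40.8 and 30.8 CPM. For this gene the high series mice of the 2 genotypes nearly touched, at 41.0 and 40.8 CPM. The 3 peroxins with the smallest differences, Pex10, Pex16 and Pex14, differed by 0.37, 0.31 and 0.26 on the log2 CPM scale among low series mice and by -0.21, -0.23 and -0.20 among high series mice.

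**Figure D2:**
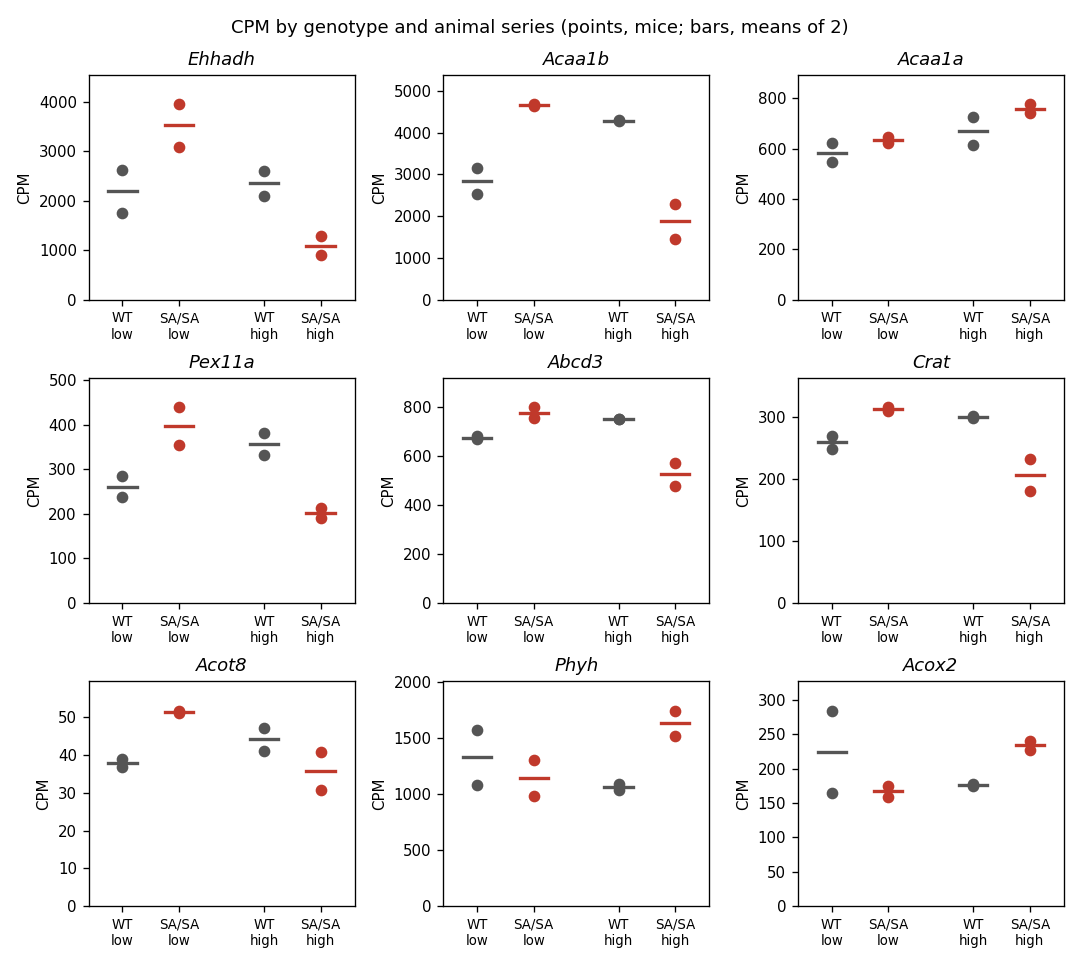
CPM of 9 genes in the 8 mice, by genotype (WT grey, SA/SA red) and animal series (low or high), with points as mice and bars as means of 2 mice. Ehhadh, Acaa1b, Pex11a, Abcd3, Crat and Acot8 are higher in SA/SA mice of the low series and lower in those of the high series, while Acaa1a, Phyh and Acox2 are not.

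The difference between the series was tested as an interaction of genotype and series in edgeR, as the log2 fold change of SA/SA against WT in the high series minus that in the low. It was -1.90 for Acaa1b with a standard error of 0.30, -1.79 for Ehhadh (0.35), -1.43 for Pex11a (0.22), -0.81 for Crat (0.20) and -0.72 for Abcd3 (0.18). No gene of the 33 passed an adjusted p of 0.05 (smallest 0.203), and 0% of all genes did (smallest 0.085). At an unadjusted p of 0.05, 11 of the 33 were reached, 33.3% beside 11.1% of all genes. Of these, 8 were more negative in the high series, beside 5.07% of all genes, and 3 (Pex2, Acox2 and Phyh) more positive, beside 6.02%. The 33 genes and this test were chosen with the opposite direction of PPARa targets in the 2 series already known. These shares are therefore a description and no independent evidence. The call depended on the tool. DESeq2 called 5 of the 33 (Pex11a, Ehhadh, Acaa1b, Abcd3 and Crat), beside 285 of all 14629 genes tested. With limma-voom 1 gene was called, which was not among the 33. With 2 mice in each cell, no difference within a single series was tested.

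**Figure D3:**
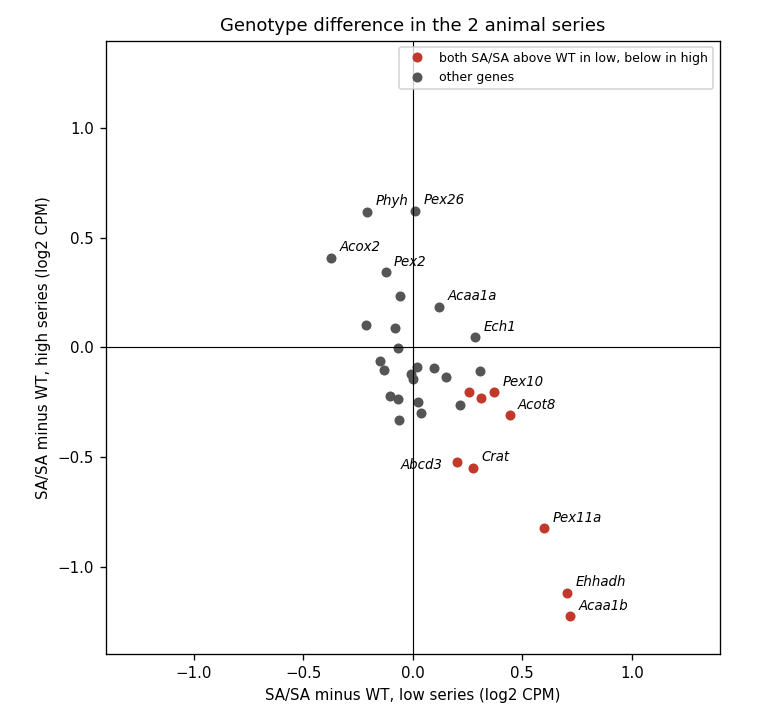
Genotype difference (SA/SA minus WT, mean log2 CPM) among mice of the low series (horizontal axis) and in the high series (vertical axis) for the 33 genes, with the 9 that crossed in red. Acaa1b, Ehhadh and Pex11a lie farthest into the lower right, at 0.72 and -1.23 for Acaa1b, and Phyh, Acox2 and Pex2 lie in the upper left.

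The SA/SA mice of the high series were the 2 lowest of the 8 for Pex13, Pex11a, Ehhadh, Hsd17b4, Acaa1b, Abcd3 and Crat, 7 of 33 genes or 21.2%, beside 9.95% of all genes. They were the 2 highest for Pex2, Pex26, Pex11g and Acaa1a, 12.1% beside 9.11%. These mice also had the highest sums of hepatocyte markers, 134086 and 140748 CPM. SA/SA replicate 2 had the lowest sum of stellate cell markers, 106 CPM beside 183 to 313 CPM in the other mice, and SA/SA replicate 3 the high lymphocyte sum given above. The part of these differences in the crossing was not tested. When 1 mouse was left out, the interaction nearest to 0 was -1.61 for Acaa1b (without SA/SA replicate 3), -1.27 for Pex11a (without SA/SA replicate 1) and -1.52 for Ehhadh (without WT replicate 1).

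**Figure D4:**
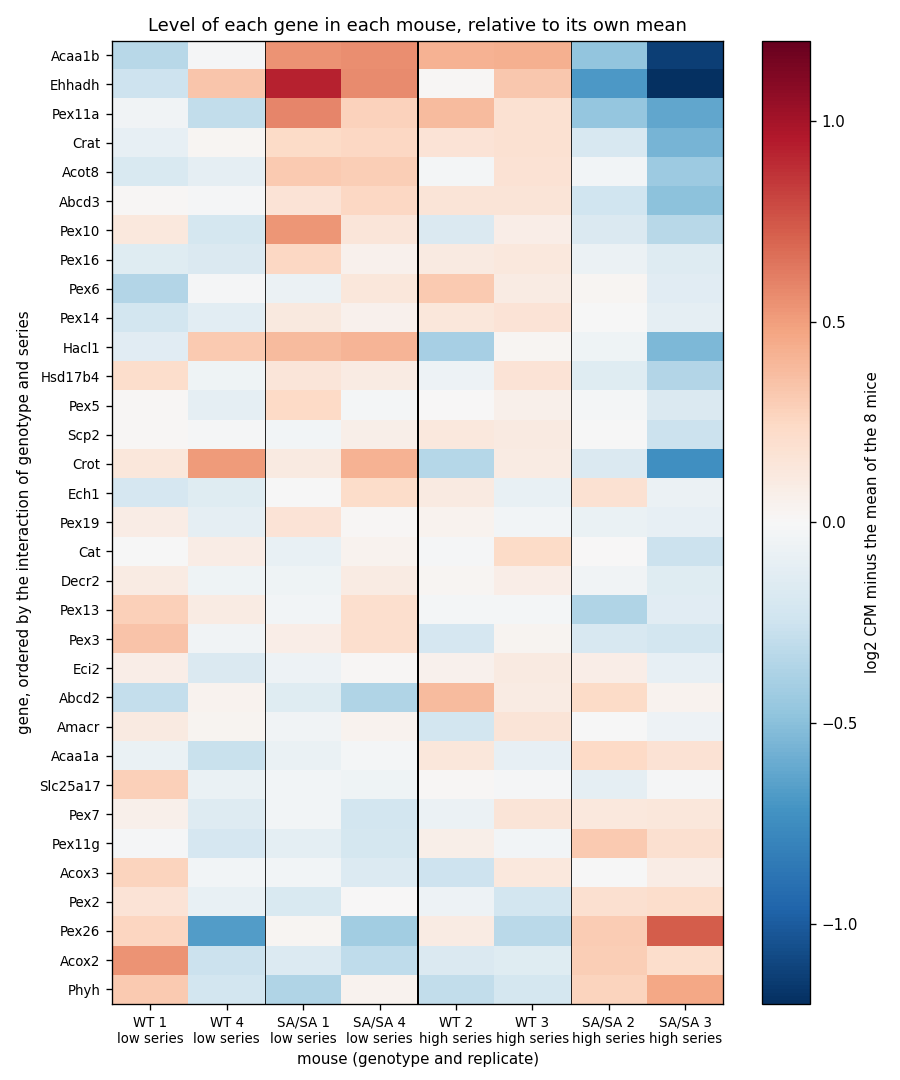
Log2 CPM of each gene in each of the 8 mice, relative to the mean of the gene, with genes ordered by the interaction of genotype and series and the 2 series separated by a black line. The top rows, from Acaa1b to Acot8, are red in the SA/SA mice of the low series and blue in those of the high series, and the bottom rows, Acox2 and Phyh, have their highest values in WT replicate 1 and in SA/SA replicates 2 and 3.

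Acaa1a and Acaa1b encode the same thiolase step from genes close to each other on chromosome 9, and they differed in this respect. Acaa1b was at 2536 and 3161 CPM in WT and 4642 and 4682 CPM in SA/SA mice of the low series, and at 4272 and 4294 CPM in WT and 2301 and 1456 CPM in SA/SA mice of the high series. Acaa1a was at 623 and 546 against 622 and 647 CPM in the low series and at 724 and 615 against 777 and 741 CPM in the high series, WT first. Acaa1b thus crossed with no overlap in either series, while Acaa1a was higher in SA/SA mice by 0.12 and 0.19 on the log2 CPM scale, with an interaction of 0.062 and a standard error of 0.19. The exact permutation p for Acaa1a was 0.171 over the 8 mice. Over all 4 mice of a genotype, Acaa1b had a mean ± SD of 3566 ± 866 CPM for WT and 3270.2 ± 1644 CPM for SA/SA.

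The coding sequences of the 2 genes are each 1272 bases long and identical at 1228 of them (96.5%), and their last 30 coding bases are the same. Reads from such copies are shared out by the counting program, so each level carries an uncertainty that its standard error does not include. The sequences before their RefSeq start sites are less alike, with 46 of 91 aligned bases the same over the last 100 bases. These 100 bases are shown beside the nearly identical coding parts, with the letters CCAAT, on either strand, in capitals. Whether they have a part in the crossing was not tested.
Acaa1a: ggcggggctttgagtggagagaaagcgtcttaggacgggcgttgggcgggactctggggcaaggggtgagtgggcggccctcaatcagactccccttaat
Acaa1b: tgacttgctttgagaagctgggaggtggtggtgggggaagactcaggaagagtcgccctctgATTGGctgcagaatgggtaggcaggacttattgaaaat
They are from the RefSeq promoter table (GRCm38.p6), each written in the direction of transcription. They lie at chr9:119341194-119341293 on the forward strand for Acaa1a and chr9:119157094-119157193 on the reverse strand for Acaa1b. The GENCODE gene model of Acaa1a begins earlier, at chr9:119339676, so its stretch lies inside the annotated gene. The stretch of Acaa1b lies just before its annotated start, at chr9:119157093. CCAAT occurs once in this stretch for Acaa1b, beginning 38 bases before the start site, and not for Acaa1a. In the full windows of 250 bases before to 50 after the start site, both genes hold it, as do 37.4% of 32851 promoters.

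The receptor pair of PPARa is known to bind 2 copies of AGGTCA in a row with a single base between them. A promoter was found for 27 of the 33 genes, and none of these held this double motif exactly on either strand, beside 13 promoters of 32851 (0.0396%). The single AGGTCA, which lies inside the double motif, occurred for Cat, Pex11g, Phyh and Scp2, beside 16.3% of all promoters. With up to 2 mismatches, the double motif was found for Cat and Acox2, beside 3.86% of all promoters. These windows are shown as the nearest matches among the 33 genes, with the bases that match the motif in capitals.
Cat: AGGTCAgAGaaCA
Acox2: AGGaCAgAGGTgA
The window of Cat begins at position -204 from the start site in chr2:103485104-103485403, and that of Acox2 lies just after a start site in chr14:8258790-8259089, both on the reverse strand. Of the 9 genes that crossed, 8 had a promoter in the table (all but Crat), and none of these 8 matched within 2 mismatches. A match is a description of letters, and its absence says only that they are not in this window.

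Acox2 and Phyh, at the other end of the ordering, were the genes for which 1 WT mouse stood apart. Phyh, which hydroxylates the branched phytanic acid of the diet so that it can lose a carbon, was at 1571, 1032, 1088 and 1083 CPM in WT replicates 1 to 4 and at 981, 1519, 1744 and 1302 CPM in SA/SA replicates 1 to 4. Acox2, the oxidase of bile acid precursors, was at 284, 174, 178 and 164 CPM in WT and at 175, 240.5, 227 and 159 CPM in SA/SA mice. WT replicate 1 stood above the other WT mice for both, and SA/SA replicates 2 and 3 were above WT replicates 2, 3 and 4. The interaction was 0.84 for Phyh (standard error 0.29) and 0.83 for Acox2 (0.32), with adjusted p of 0.352 and 0.391 (edgeR). Without WT replicate 1 the log2 fold change was 0.38 for Phyh and 0.22 for Acox2, in place of 0.22 and 0.0019.

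The 2 series were also compared with each other over both genotypes. None of the 33 genes passed an adjusted p of 0.05 (edgeR, smallest 0.251), and 7 reached an unadjusted p of 0.05, 21.2% beside 12.8% of all genes. Of these 7, Crot, Hacl1, Pex3 and Pex13 were lower in the high series, by 0.57, 0.47, 0.29 and 0.28 on the log2 scale, and Abcd2, Pex11g and Acaa1a were higher, by 0.37, 0.27 and 0.23. Crot, which moves medium chains onto carnitine, was at 856 and 1110 CPM in WT and 839 and 1039 CPM in SA/SA mice of the low series, and at 614 and 836 CPM in WT and 691 and 468 CPM in SA/SA mice of the high series. Each low series mouse was thus above each high series mouse for Crot, in both genotypes.

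Other genes of the organelle were compared in the same way. Of 50 further peroxisomal genes listed, 48 were tested, 24 were higher and 24 lower, and the median log2 fold change was 0.00009. None passed an adjusted p of 0.05, and 2 reached an unadjusted p of 0.05, beside 3.4% of all genes. These were Acbd5, a membrane protein that tethers peroxisomes to the endoplasmic reticulum (-0.31, standard error 0.13), and Trim37, a ubiquitin ligase (-0.43, 0.19). In the interaction, 14 of the 48 reached an unadjusted p of 0.05, beside 11.1% of all genes, with 6 negative (5.07% of all genes) and 8 positive (6.02%). Of the same 48, 6 crossed in the way described above and 3 in the opposite way, beside 4.72% and 4.76% of all genes. Among the negative ones, Hsdl2 and Acot4 had values of -0.93 and -0.88, and the smallest p belonged to Mpv17l, at 1.84.

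PPARa targets outside peroxisomes were set beside the 33 genes, in a list that does not hold Plin5. All 24 listed were tested, with a median log2 fold change of 0.0029, 12 higher and 12 lower, and none at an unadjusted p of 0.05, beside 3.4% of all genes. In the low series 21 of the 24 were higher in SA/SA mice, at a median difference of 0.21 on the log2 CPM scale, and among high series mice 5 were, at a median of -0.35. The interaction was negative at an unadjusted p of 0.05 for 10 of them and positive for 0, and 10 crossed in the way described above, beside 5.07%, 6.02% and 4.72% of all genes. The 4 with the smallest p were Plin2, a lipid droplet coat protein (-0.97), the acyl-CoA thioesterases Acot2 (-2.10) and Acot1 (-2.24), and the fatty aldehyde dehydrogenase Aldh3a2 (-0.77). None passed the adjusted threshold (edgeR). These mice are the same ones, so the 2 lists are not independent of each other. The list was also chosen with the opposite direction of PPARa targets in the 2 series already known. Its counts are therefore a description and no separate evidence for the crossing of the 33 genes.

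Ppara, the gene of the receptor, was not among the genes that crossed. It was at 114, 94.4, 82.2 and 94.6 CPM in WT replicates 1 to 4 and at 85.6, 98.3, 93.5 and 95.7 CPM in SA/SA replicates 1 to 4, with no SA/SA mouse outside the WT range. Its log2 difference was -0.046 with a standard error of 0.11, and its interaction was 0.32 with a standard error of 0.20. Of the 13 genes in that list, 1 reached an unadjusted p of 0.05 between the genotypes, beside 3.4% of all genes (Ncor1, a corepressor, at -0.27 with an adjusted p of 0.993 in edgeR). In the interaction 2 of the 13 reached it in opposite directions, beside 11.1% of all genes, Rxrb at -0.42 and Rxra, the usual partner of PPARa, at 0.53.

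Per kilobase of the main transcript, averaged over the 8 mice, Acaa1b had the highest level of the 33 at 2024 CPM per kb. Phyh and Scp2 followed at 897 and 896, then Ehhadh at 768, Ech1 at 706 and Cat at 598 CPM per kb. The ranges over the mice of these neighbours overlapped, from 301 to 1324 CPM per kb for Ehhadh and from 609 to 818 for Ech1, so their order was not fixed from mouse to mouse. Of the peroxins, Pex11a was highest at 136 CPM per kb and Pex10 lowest of all 33 at 5.12, where the smallest estimated count in a library was still 256. The 2 thiolase copies differed in this level, with Acaa1a at 376 CPM per kb. Another annotated gene overlaps 17 of the 33 on the opposite strand and 7 on the same strand, among them Dlec1 for Acaa1b, an antisense gene for Pex11a and Dolpp1 for Crat, and 12 have none.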

How the data were processed

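Liver RNA of 8 mice was sequenced as stranded mRNA libraries (100 bp pairs). The table deposited by the authors holds estimated counts for each gene, made with salmon, scaled for transcript length between samples and not normalized for library size. The submitters' processing notes name STAR, SAMtools, DESeq2 and build GRCm38. The use of strand in counting is not given in the sources used here.

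Columns were matched to mice by animal number. Counts were rounded, filtered with filterByExpr, normalized by TMM and tested with the quasi-likelihood test of edgeR 4.0.16 (R 4.3.3) over all genes, with Benjamini-Hochberg adjustment and no block. The interaction fit added the animal series. Log2 CPM used a prior count of 2, and standard errors came from the F statistic. Alternatives used DESeq2 1.42.0, limma-voom (limma 3.58.1), other scalings, filters and blocks, and leaving out each mouse. The edgeR fit of genotype was checked on simulated counts, and the interaction fit was not.

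The members, gene lists and tests were chosen with earlier results of these data known, including the opposite direction of PPARa targets in the 2 series. All 33 genes could be named, with values in each mouse for the 5 smallest p of either fit, and of the other lists up to 4 genes. Gene models are from GENCODE release M21 (GRCm38, 45143 of 45706 identifiers matched) and promoters from RefSeq. P-values set a difference against the spread between mice. No 2 libraries were copies.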

Additional observations from a re-analysis of the deposited data

Results flagged for a closer look

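For 9 of the 33 genes the genotype difference had opposite directions in the 2 animal series, with no overlap between genotypes in either. All 9 were higher in SA/SA mice of the low series, a share of 27.3% beside 4.72% of all genes tested. This way of counting was chosen after the values were seen. The interaction on the log2 scale was -1.90 for Acaa1b, -1.79 for Ehhadh, -1.43 for Pex11a, -0.81 for Crat, -0.74 for Acot8, -0.72 for Abcd3, -0.59 for Pex10, -0.55 for Pex16 and -0.46 for Pex14. In edgeR none passed adjustment over all genes, and their adjusted p ran from 0.203 to 0.520. The labels do not say what separates the series.

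A single mouse stood apart from the others of its genotype in 3 of 70 groups of 4 searched, where chance alone gives about 4. All 3 were WT replicate 1, with Acox2 at 284 CPM (164 to 178 in the other WT mice), Phyh at 1571 CPM (1032 to 1088) and Plin5 at 254 CPM (183 to 194).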

How the results depend on the processing

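No alternative called any of the 33 genes between SA/SA and WT. DESeq2 called 6 genes of all. In the interaction, DESeq2 called 285 of 14629 genes and 5 of the 33, and limma-voom 1 gene and none of the 33. With edgeR and no filter beyond a count above 0, 765 of 22439 genes were called. Among them were 6 of the 33 (Pex11a, Acox2, Ehhadh, Acaa1b, Phyh, Crat). Without that filter the fit gave all genes the same prior spread (an infinite number of prior degrees of freedom, 4.55 with the filter). The cause of the difference from DESeq2 was not tested. The smallest adjusted p of the 33 in the interaction ran from 0.0615 to 0.457 when 1 mouse was left out, with 0 to 40 genes called (40 without WT replicate 4, 5 without SA/SA replicate 2, 1 without WT replicate 3). Leaving out SA/SA replicate 1 gave the lowest median log2 fold change of the 33 (-0.064) and leaving out SA/SA replicate 3 the highest (0.035), both within the SD of 0.082 between mice.

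None of the fold changes that turned in sign had been called. With limma-voom, Pex19 was at -0.00016 and Ehhadh at -0.22. With library size alone, Pex19 was at -0.028, Pex5 at -0.015, Pex7 at -0.036, Pex14 at -0.015 and Acox2 at -0.041. With animal series as a block, Pex19 was at -0.00035, Acox2 at -0.0080 and Ehhadh at -0.21. The correlations between same-numbered mice, of deviations from the genotype means, were 0.056, 0.17, -0.11 and 0.13. For WT replicates 1, 2 and 4 the most correlated SA/SA mouse was the same-numbered one, and for WT replicate 3 it was SA/SA replicate 4. These low values do not settle whether the replicate numbers pair the mice. With the replicate block, 0 genes were called, the median of the 33 was -0.033 and Ehhadh was at -0.21. Leaving out 1 mouse at a time turned the sign of 17 genes in at least 1 fit. Their log2 fold changes then ran from -0.15 to 0.051 for Pex3, -0.041 to 0.10 for Pex16, -0.055 to 0.038 for Pex19, -0.068 to 0.075 for Pex5, -0.043 to 0.077 for Pex7, -0.042 to 0.079 for Pex14, -0.071 to 0.23 for Pex10, -0.14 to 0.068 for Pex6, -0.29 to 0.12 for Pex11a, -0.089 to 0.22 for Acox2, -0.15 to 0.019 for Acox3, -0.37 to 0.29 for Ehhadh, -0.35 to 0.12 for Acaa1b, -0.11 to 0.0050 for Amacr, -0.21 to 0.036 for Crat, -0.36 to 0.0049 for Crot and -0.00082 to 0.23 for Acot8.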
